A study of Homo sapiens with 5 samples.

Results

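The collagen genes were taken as every listed symbol that reads COL, a number, A and a number with nothing after it, which gave 44 of 26364 listed genes. Transcripts were measured by mRNA-seq in IMR-90, a line of diploid fibroblasts from human fetal lung, 24 hr after the siRNAs were transfected. The Ctr-KD group, given a control siRNA, had 2 libraries (Ctr-1 and Ctr-2). The NSD2-KD group had 3 (NSD2-1, NSD2-2 and NSD2-3), each with its own siRNA against NSD2, a methyltransferase of histone H3 lysine 36, so the siRNA and the replicate cannot be told apart there. All 5 libraries came from cells of this 1 line, so both groups share its genotype and culture conditions. The paper reports lower cell cycle gene sets in NSD2-KD cells at this time. By structure the 44 genes were grouped as 11 fibrillar, 6 basement membrane, 10 FACIT (fibril-associated collagens with interrupted triple helices) and 17 other collagens.

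Collagens are proteins, most of them secreted and some transmembrane, in which 1 stretch or more of every chain winds with others into a triple helix. Fibrillar collagens pack into the fibrils that give connective tissue its tensile strength, type IV collagens form the sheet-like network of basement membranes, and FACIT chains bind along fibril surfaces. Lung fibroblasts are known as a main source of the collagen of the lung, and collagen transcripts are abundant in them.

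The levels below are normalized counts, the reads on each gene divided by the authors' single size factor per library. The libraries held between 2473691 and 2845063 reads on genes. The 2 Ctr-KD libraries were nearly as alike as counting noise allows. Their chi-square divided by its degrees of freedom was 1.05 (11352 genes), and in every other pair of libraries it was between 4.11 and 5.65. The supporting procedures call the 2 Ctr-KD libraries biological replicates, and whether their spread is only technical was not tested. The p-values measure only the spread between these 5 libraries. NSD2, listed under its older symbol WHSC1, lay between 18.1% and 19.9% of the Ctr-KD mean with the 3 siRNAs. The fibroblast identity of the cells was checked with 10 fibroblast markers that are no collagens. Their summed normalized count was between 70003 and 80865, with FN1, VIM and FBN1 highest and S100A4 at no more than 8.79. The endothelial markers PECAM1 and CDH5 and the leukocyte markers PTPRC and CD3E were at 0 in every library. The whole endothelial list, which also holds VWF and KDR, summed to between 1.91 and 6.55. CD68, a lysosomal marker of macrophages, had 78.1 and 70.0 normalized counts in Ctr-KD cells and 82.8, 102.7 and 60.5 in NSD2-1, NSD2-2 and NSD2-3, which was the whole sum of the leukocyte list. The epithelial markers EPCAM, CDH1 and SFTPC were at no more than 2.18. The summed epithelial list, nearly all from KRT8 and KRT18, was between 149.7 and 165 in 4 libraries and 265 in NSD2-3. The part of either list in any result was not tested.

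Collagen transcripts made up a large share of the library in both groups. Together the 24 collagens tested below took 8.67% and 8.82% of the reads on genes in Ctr-1 and Ctr-2, and 8.51%, 9.14% and 8.11% in NSD2-1, NSD2-2 and NSD2-3. The shares thus lay on both sides of the Ctr-KD values. COL1A1 was the highest gene of all in Ctr-KD cells. COL1A2 and COL6A3 were also among the 4 highest genes, and 11 collagens were among the 50 highest. Of the 44 collagens, 24 had a mean normalized count of at least 10 over the 5 libraries and were tested, namely 9 fibrillar, 4 basement membrane, 3 FACIT and 8 other collagens.

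**Figure D1:**
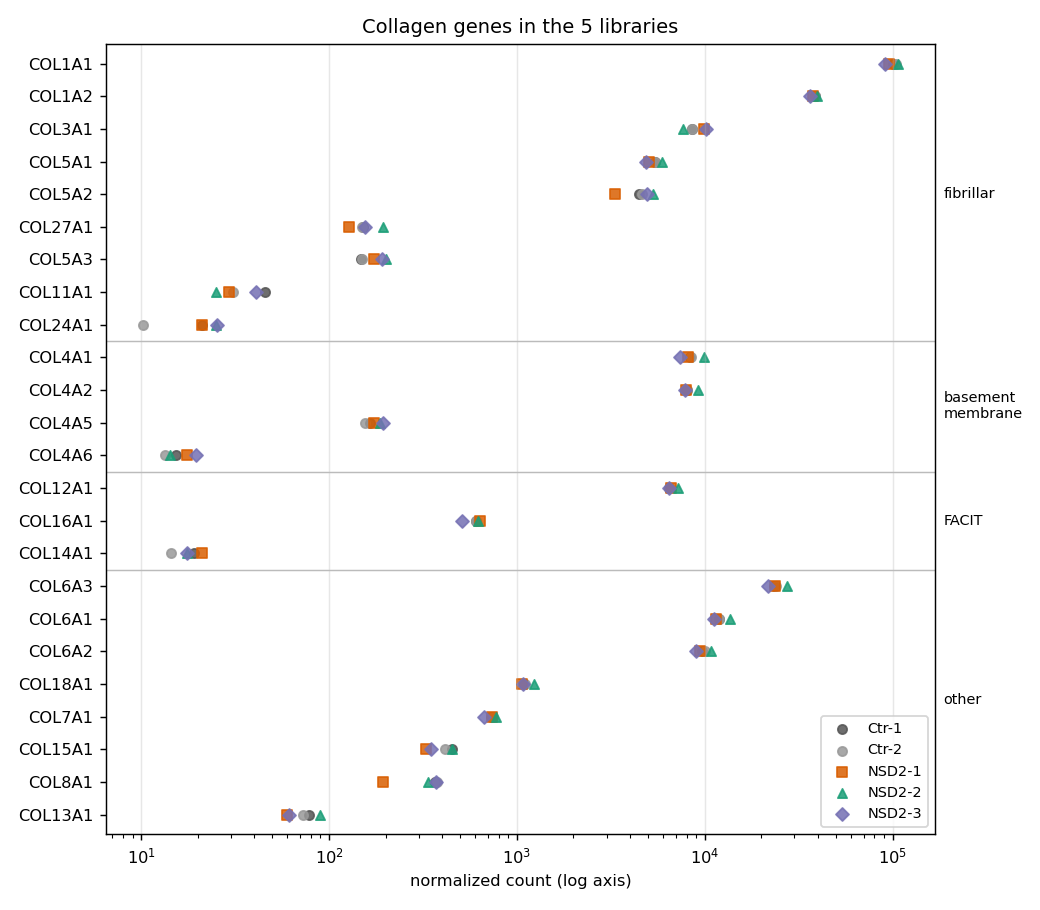
Normalized count of each of the 24 tested collagen genes (rows, grouped as fibrillar, basement membrane, FACIT and other) in each of the 5 libraries, on a log axis; circles are the 2 Ctr-KD libraries and squares, triangles and diamonds are NSD2-1, NSD2-2 and NSD2-3. The genes span from 10.3 normalized counts (COL24A1 in Ctr-2) to 106318 (COL1A1 in NSD2-2), and the libraries of 1 gene lie close together against this range.

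To compare levels between genes, the counts were divided by the length of the canonical transcript in kb. On this scale COL1A1 had 17259 ± 464 (SD, n = 2) normalized counts per kb in Ctr-KD cells and COL1A2 had 7623 ± 44.4 (SD, n = 2). These 2 genes encode the chains of type I collagen, the main fibril collagen of lung and skin, and held 63.1% of the summed per-kb level of the tested collagens. The 3 chains of the beaded-filament type VI followed, with COL6A2 at 2858 ± 63.9, COL6A1 at 2826 ± 16.2 and COL6A3 at 2239.8 ± 29.2 per kb (SD, n = 2), together 20.1% of the sum. COL3A1, the single chain of type III, had 1558 ± 2.00 per kb (SD, n = 2). The type IV chains COL4A1 and COL4A2 had 1278 ± 11.3 and 1253 ± 0.678 per kb (SD, n = 2), together 6.42%. An SD of 2 libraries can lie far below counting error. For COL4A2 in Ctr-1, counting alone gave a 95% interval of 7901 to 8246 normalized counts. In this order of 24 genes, 12 of the 23 pairs of neighbours overlapped over the 5 libraries, among them COL6A2 with COL6A1, COL3A1 with COL4A1, and COL4A1 with COL4A2. With the union of all annotated exons as the length, a choice made after seeing the data, the type I pair held 61.8%. Of the 24 genes, 18 then took another rank, and no gene moved by more than 2 ranks.

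No collagen gene was called between NSD2-KD and Ctr-KD cells by the test over all genes, which does not show that none changed. In the limma fit on log2(normalized count + 1), 0 of the 24 tested collagens had an adjusted p under 0.05 (Benjamini-Hochberg over 11313 genes), where 0.0884% of all tested genes did, and the adjusted p of the collagens ran from 0.476 to 0.994. At an unadjusted p under 0.05 there was 1 collagen, COL5A3, against 9.18% of all tested genes. edgeR's quasi-likelihood test and DESeq2 on the recovered reads also called 0 collagens, where they called 0.141% and 0.557% of all genes they tested. The median log2 difference of the 24 collagens was 0.01, with 13 above and 11 below 0, beside a median of -0.0089 over all tested genes. For the 12 collagens with a Ctr-KD mean of at least 1000, the lowest bound of any 95% interval of the change was -26.3% and the highest was 30.3%. The interval was wider for some genes under that level, such as COL8A1 (-47.6% to 15.1%) and COL24A1 (-6.62% to 166%). Each interval takes both groups to vary alike, although all 12 abundant collagens varied more between the NSD2-KD libraries. By group the median was -0.03 for the fibrillar (5 below and 4 above 0), 0.12 for the basement membrane (0 and 4), 0.06 for the FACIT (1 and 2) and -0.02 for the other collagens (5 and 3). In bulk libraries such as these, fewer cells with a transcript and less of it per cell cannot be told apart.

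**Figure D2:**
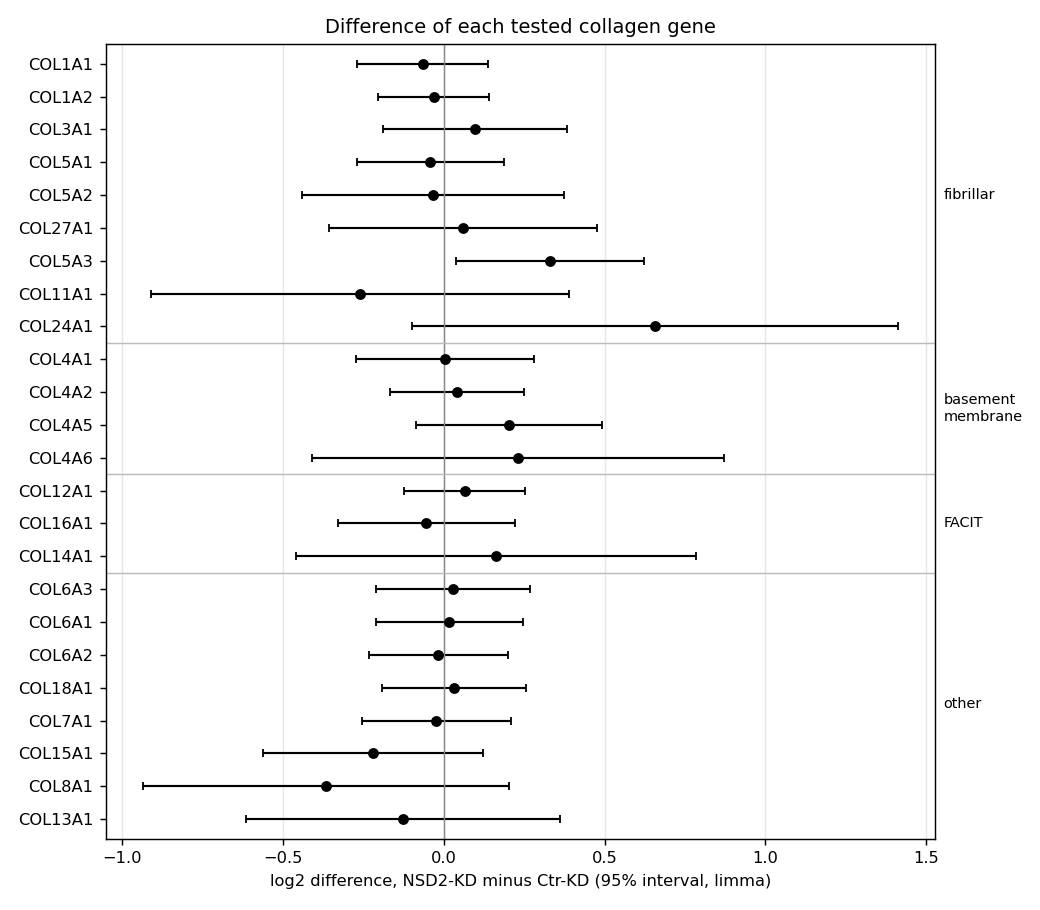
Log2 difference between NSD2-KD (n = 3) and Ctr-KD (n = 2) cells for each tested collagen gene, with the 95% interval of the limma fit as bars. All intervals include 0 except that of COL5A3, from 0.04 to 0.62, and they are widest for genes with few reads such as COL24A1.

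The order of the libraries gave 3 collagens in which every NSD2-KD library was above both Ctr-KD libraries, COL5A3, COL4A5 and COL24A1, which is 12.5% of the 24 where 13.8% of all tested genes had this order. There were 0 collagens with every NSD2-KD library below both Ctr-KD libraries, where 13.9% of all tested genes had that order. In the other 21 collagens the groups overlapped.

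Among the fibrillar collagens, COL1A1 (chromosome 17 of GRCh37, from 48261462 to 48278993, minus strand) had normalized counts of 100129.6 and 104010.0 in Ctr-1 and Ctr-2 and of 95964, 106318 and 91004 in NSD2-1, NSD2-2 and NSD2-3. NSD2-2 was the highest library and NSD2-3 the lowest, so that the groups overlapped. The log2 difference was -0.06 (95% interval -0.27 to 0.14, adjusted p = 0.874 from limma). COL1A2, its partner chain on chromosome 7 from 94024207 to 94060539, had 38503 and 38822 against 37871, 39459.6 and 36199, with the same order of the NSD2-KD libraries and a log2 difference of -0.03 (95% interval -0.21 to 0.14, adjusted p = 0.933 from limma). The ratio of COL1A1 to COL1A2 per kb was 2.26 ± 0.0477 (SD, n = 2) for Ctr-KD and 2.21 ± 0.0848 (SD, n = 3) for NSD2-KD. The ratio differed by 7.17% between the highest and the lowest library. Its level depends on the length used, and with the union of annotated exons the Ctr-KD mean was 3.17. The other ratios per kb below also depend on it, and their Ctr-KD means with the union of exons were 0.112 for COL3A1 to COL1A1, 0.782 for COL5A1 to COL5A2, 1.36 for COL4A1 to COL4A2, 1.16 for COL6A1 to COL6A2 and 0.511 for COL6A3 to COL6A1.

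COL3A1, which encodes type III collagen of extensible tissues such as lung and vessel wall, took the opposite order. It had 8559.7 and 8544 normalized counts in Ctr-1 and Ctr-2 and 9878, 7631 and 10140.2 in NSD2-1, NSD2-2 and NSD2-3. It was above both Ctr-KD libraries with NSD2-1 and NSD2-3 and below them with NSD2-2. Its log2 difference was 0.10 (95% interval -0.19 to 0.38, adjusted p = 0.864 from limma). The ratio of COL3A1 to COL1A1 per kb was 0.0903 ± 0.00254 (SD, n = 2) in Ctr-KD cells, and 0.111, 0.0773 and 0.120 with NSD2-1, NSD2-2 and NSD2-3. The lowest ratio was therefore with NSD2-2 and the highest was 55.2% above it.

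Type V chains join type I fibrils and are known to limit their diameter. COL5A1 had 5405 and 5438 normalized counts in Ctr-KD cells and 5034, 5942 and 4887 in NSD2-1, NSD2-2 and NSD2-3. COL5A2 had 4482 and 4609 in Ctr-KD cells and 3342, 5305 and 4942 in NSD2-KD cells. NSD2-1 alone was low for COL5A2, at 73.5% of the Ctr-KD mean, while the other two siRNAs were above both Ctr-KD libraries, and its log2 difference was -0.03 (95% interval -0.44 to 0.37, adjusted p = 0.972 from limma). The ratio of COL5A1 to COL5A2 per kb was 0.965 ± 0.0149 (SD, n = 2) in Ctr-KD cells and 1.22, 0.906 and 0.800 in NSD2-1, NSD2-2 and NSD2-3. The highest of the 5 was 52.3% above the lowest.

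COL5A3, the third chain of type V (chromosome 19, from 10070237 to 10121180, minus strand), was the collagen with the lowest p. It had 148 and 150.2 normalized counts in Ctr-1 and Ctr-2 (149 ± 1.80, SD, n = 2) and 173, 199.9 and 190.3 in NSD2-1, NSD2-2 and NSD2-3 (188 ± 13.6, SD, n = 3). Each siRNA thus lay above both Ctr-KD libraries, at 116%, 134% and 128% of their mean. Counting alone gave a 95% interval of 125 to 173 in Ctr-1, so the Ctr-KD SD is below counting error. The log2 difference was 0.33 (95% interval 0.04 to 0.62), with an unadjusted p of 0.0318 and an adjusted p of 0.476 from limma, so that it was not called. Over the alternatives its log2 difference lay between 0.28 and 0.39, and the lowest adjusted p was 0.328, without NSD2-KD replicate 1. Its coefficient of variation in NSD2-KD cells, 7.27%, was close to the 7.28% that counting alone would give.

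The minor fibrillar chains had few reads. COL27A1 had 151 and 150.2 normalized counts in Ctr-KD cells and 128, 194 and 156 in NSD2-1, NSD2-2 and NSD2-3. COL11A1, a chain of type XI best known from cartilage, had 45.7 and 30.9 against 29.4, 25.1 and 41.0. Neither separated the groups. COL24A1 had 21.0 and 10.3 against 21.2, 25.1 and 25.4, with the highest fitted difference of any collagen, 0.66 on the log2 scale (95% interval -0.10 to 1.41, adjusted p = 0.606 from limma). That difference depended on the Ctr-KD library, since it was 1.14 without Ctr-KD replicate 1 and 0.18 without Ctr-KD replicate 2. The added 1 shrinks differences of genes with low counts, and with a pseudocount of 0.5 the difference of COL24A1 was 0.68. On the recovered reads it was 0.58 with edgeR and 0.60 with DESeq2, below that of the main fit.

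Of the basement membrane collagens, COL4A1 and COL4A2 encode the common alpha1 and alpha2 chains of type IV, which assemble into 1 trimer. The genes lie head to head on chromosome 13 with 126 bases between their RefSeq starts, and COL4A5 and COL4A6 lie likewise on chromosome X with 379 bases between them. The gap between COL4A1 and COL4A2 is shown because both genes start from it, and the bases upstream of COL4A5 and COL5A3 because these are the better measured of the 3 collagens whose NSD2-KD libraries were all above Ctr-KD. The sequences are from the RefSeq promoter table and were placed on GRCh37 by exact match. Each is written 5′ to 3′ on the strand given, and capitals mark matches on either strand to the CCAAT box, searched as CCAAT, or to the GC box, searched as GGGCGG.

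COL4A1-COL4A2 gap, chr13:110959505-110959630, plus strand: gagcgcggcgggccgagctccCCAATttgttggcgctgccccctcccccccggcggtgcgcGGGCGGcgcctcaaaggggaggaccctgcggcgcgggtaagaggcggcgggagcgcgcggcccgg
COL4A5 upstream, chrX:107682818-107683067, plus strand: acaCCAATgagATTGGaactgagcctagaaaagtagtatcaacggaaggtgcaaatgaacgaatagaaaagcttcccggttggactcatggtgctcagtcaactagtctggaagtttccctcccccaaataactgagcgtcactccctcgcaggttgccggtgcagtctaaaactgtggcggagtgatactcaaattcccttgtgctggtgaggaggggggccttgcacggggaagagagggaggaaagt
COL5A3 upstream, chr19:10121181-10121430, minus strand: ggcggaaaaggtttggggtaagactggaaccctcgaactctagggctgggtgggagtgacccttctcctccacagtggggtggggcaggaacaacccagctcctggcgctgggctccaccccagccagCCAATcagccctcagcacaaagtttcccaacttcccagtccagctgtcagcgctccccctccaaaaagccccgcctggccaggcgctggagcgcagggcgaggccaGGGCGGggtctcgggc

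The gap between COL4A1 and COL4A2 was 80.2% G and C, against 51.2% upstream of COL4A5 and 66.0% upstream of COL5A3. It held 1 CCAAT and 1 GGGCGG. The bases upstream of COL4A5 held 2 CCAAT, 1 on each strand, and no GGGCGG, and those upstream of COL5A3 held 1 of each. The TATA box, searched as TATAAA, was in none of the 3. In the table's windows of 250 bases before and 50 after a start, CCAAT stood on either strand in 34.6% of all 35116 windows, and in 6 of the 17 tested collagens with a window. GGGCGG stood in 45.0% of all windows and in 12 of these 17 collagens, and TATAAA in 11.5% and in 3. These matches describe the letters in these windows and do not show a site in use. Promoter windows were matched for 32 of the 44 collagens. The others were COL1A1, COL1A2, COL2A1, COL3A1, COL5A2, COL6A1, COL6A5, COL8A1, COL9A3, COL14A1, COL20A1 and COL22A1.

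The head-to-head pair on chromosome 13 was abundant. COL4A1 had normalized counts of 8302 and 8407 in Ctr-1 and Ctr-2 and of 8118, 9868 and 7352 in NSD2-1, NSD2-2 and NSD2-3. COL4A2 had 8072 and 8078 against 7953, 9195 and 7850.2. For both genes NSD2-2 was above and NSD2-1 and NSD2-3 were below the Ctr-KD libraries. The log2 differences were 0.0048 for COL4A1 (95% interval -0.27 to 0.28) and 0.04 for COL4A2 (95% interval -0.17 to 0.25), with adjusted p of 0.994 and 0.924 from limma. Their ratio per kb was 1.02 ± 0.0085 (SD, n = 2) for Ctr-KD and 0.996 ± 0.0679 (SD, n = 3) for NSD2-KD. The listed antisense gene COL4A2-AS1 overlaps exons of COL4A2 and had between 296 and 359 normalized counts.

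The pair on chromosome X stood at unlike levels, with 24.6 ± 1.13 normalized counts per kb for COL4A5 and 2.14 ± 0.198 for COL4A6 in Ctr-KD cells (SD, n = 2). COL4A5, mutated in Alport syndrome of the kidney, had 166 and 155 normalized counts in Ctr-KD cells and 173, 188 and 194 in NSD2-1, NSD2-2 and NSD2-3. All 3 siRNAs were above both Ctr-KD libraries, with a log2 difference of 0.20 (95% interval -0.09 to 0.49, adjusted p = 0.689 from limma). COL4A6 had 15.2 and 13.4 against 17.5, 14.2 and 19.5. The remaining type IV genes, COL4A3 and COL4A4, whose products are chains of the mature glomerular basement membrane, had 2 reads in all 5 libraries and none.

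Of the FACIT collagens, COL12A1 was the abundant one. Type XII collagen sits on type I fibrils and is known from tendon, ligament and other loaded tissue. It had 6477 and 6455 normalized counts in Ctr-1 and Ctr-2 and 6621, 7239 and 6452 in NSD2-1, NSD2-2 and NSD2-3, with a log2 difference of 0.06 (95% interval -0.12 to 0.25, adjusted p = 0.862 from limma). COL16A1 had 604 and 609 against 632, 620.4 and 508, where only NSD2-3 was below both Ctr-KD libraries. COL14A1 had 19.1 and 14.4 against 21.2, 17.5 and 17.6. The groups overlapped for all 3 of these FACIT genes.

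Among the other collagens, the type VI genes were the most abundant. Type VI collagen forms beaded filaments around cells, and COL6A1 and COL6A2 are neighbours on chromosome 21. COL6A3 had 23373 and 23807 normalized counts in Ctr-KD cells and 23570.2, 27376 and 21637 in NSD2-1, NSD2-2 and NSD2-3. COL6A1 had 11829 and 11926 against 11439.6, 13628 and 11146, and COL6A2 had 9689.5 and 10001 against 9447, 10805 and 9018. The 3 genes kept 1 order of the siRNAs, with NSD2-2 highest and NSD2-3 lowest, and their log2 differences were 0.03, 0.02 and -0.02 (adjusted p from 0.956 to 0.973 in limma). The ratio of COL6A1 to COL6A2 per kb differed by 5.77% between the highest and the lowest library, and that of COL6A3 to COL6A1 by 6.13%.

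COL8A1 showed the widest spread between NSD2-KD libraries of any tested collagen. It encodes a short-chain collagen made by vessel wall and other mesenchymal cells. It had 368 and 378 normalized counts in Ctr-1 and Ctr-2 and 194, 334 and 372 in NSD2-1, NSD2-2 and NSD2-3, so that NSD2-1 alone was far below the rest at 52.1% of the Ctr-KD mean. The 95% counting interval was 169 to 222 in NSD2-1 and 298 to 374 in NSD2-2, the next lowest library, which compares these libraries and covers counting error only. The log2 difference was -0.37 (95% interval -0.93 to 0.20, adjusted p = 0.720 from limma), and -0.08 without NSD2-KD replicate 1.

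The multiplexins COL15A1 and COL18A1, whose products lie in or near basement membranes, were both highest in NSD2-2 among the NSD2-KD libraries. NSD2-1 was lowest in both, but its 95% counting interval overlapped that of NSD2-3. COL15A1 had 452 and 417 normalized counts in Ctr-KD cells and 329, 451 and 348 in NSD2-1, NSD2-2 and NSD2-3, with a log2 difference of -0.22 (95% interval -0.56 to 0.12, adjusted p = 0.720 from limma). COL18A1, the source of endostatin, had 1091 and 1105 against 1065, 1232 and 1079. Both genes were below both Ctr-KD libraries with NSD2-1 and NSD2-3 and not with NSD2-2. For COL18A1 the 95% counting intervals of NSD2-1 and NSD2-3 overlapped those of both Ctr-KD libraries. COL7A1, which forms the anchoring fibrils of skin, had 724 and 747 against 738, 771 and 666. The transmembrane collagen COL13A1 had 78.1 and 73.0 against 59.8, 89.6 and 61.5. In none of these 4 genes did the groups separate.

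The position relative to Ctr-KD differed between the NSD2-KD libraries. NSD2-2 was above both Ctr-KD libraries in 18 of the 24 collagens, where 40.6% of all tested genes were, and below both in 3, against 38.8%. NSD2-1 was above both in 8 and below both in 14, against 38.6% and 38.0% of all tested genes. NSD2-3 was above both in 7 and below both in 14, against 39.0% and 38.7%. The median log2 value over the 24 collagens relative to the Ctr-KD mean was -0.04 with NSD2-1, 0.15 with NSD2-2 and -0.03 with NSD2-3, where the median over all tested genes was between 0.0044 and 0.0115.

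Abundant genes as a whole also lay higher in the NSD2-2 library. Of the 331 genes with a Ctr-KD mean of at least 1000, a level chosen after the values were seen, 60.4% were above both Ctr-KD libraries in NSD2-2 and 27.8% below both. Of the 12 collagens at that level 11 were above both in NSD2-2, and COL3A1 was below both. In NSD2-1 2 of the 12 were above and 9 below, against 39.9% and 46.8% of these abundant genes, and in NSD2-3 2 were above and 10 below, against 43.2% and 45.9%. The median of these 12 collagens was -0.04, 0.16 and -0.09 in NSD2-1, NSD2-2 and NSD2-3, and that of the 331 genes was -0.01, 0.06 and -0.01, on the log2 scale relative to the Ctr-KD mean. With 1 library per siRNA these differences have no replicate check, and their cause was not tested.

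**Figure D3:**
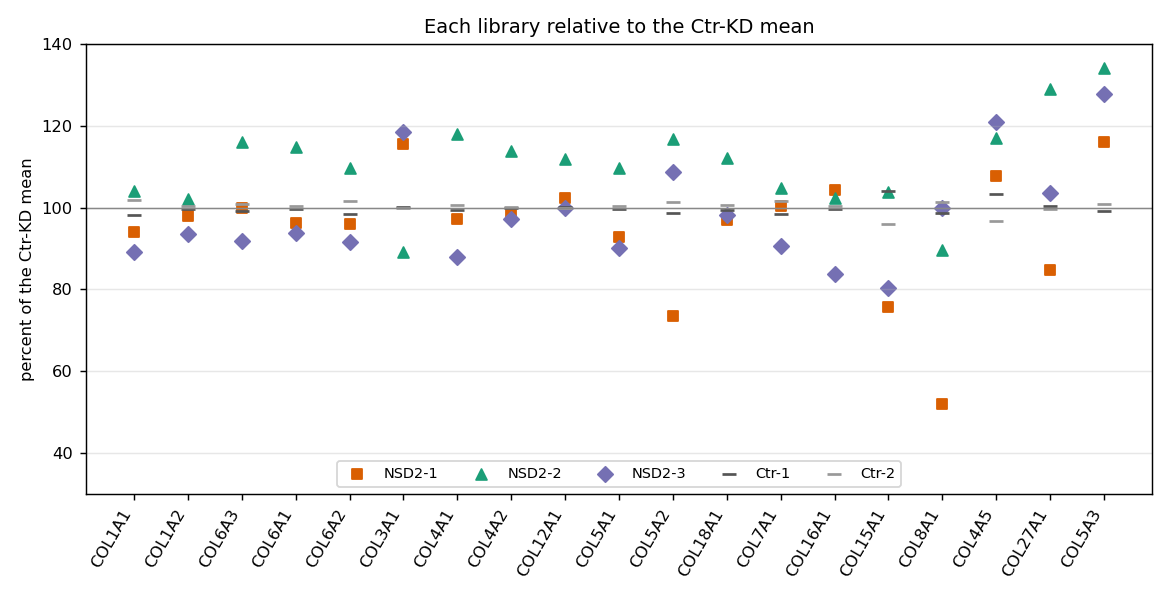
Normalized count of each library as a percent of the Ctr-KD mean, for the 19 collagens with a Ctr-KD mean of at least 100, ordered by that mean; short lines are the 2 Ctr-KD libraries, and squares, triangles and diamonds are NSD2-1, NSD2-2 and NSD2-3. NSD2-2 is the highest library for most abundant collagens but the lowest for COL3A1, and NSD2-1 stands at 52.1% for COL8A1 and 73.5% for COL5A2.

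The spread between the NSD2-KD libraries was larger than counting error for most collagens. The coefficient of variation over the 3 NSD2-KD libraries was above that of counting alone in 19 of the 24, where it was in 65.0% of all tested genes. For the 12 abundant collagens it was between 4.31% (COL1A2) and 23.1% (COL5A2), where counting alone would give at most 2.97%. Of the 331 abundant genes, 91.8% were also above counting alone. Over the 2 Ctr-KD libraries it was between 0.0541% (COL4A2) and 2.69% (COL1A1), and all 12 varied more in NSD2-KD cells, as did 91.2% of the 331 abundant genes.

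The 20 collagens under the filter were at or near 0. Of these, 10 had no read in any library: COL4A4, COL6A5, COL9A1, COL10A1, COL11A2, COL19A1, COL20A1, COL22A1, COL26A1 and COL28A1. The limit that a count of 0 allows, 3 reads, corresponds to between 2.76 and 3.28 normalized counts per library. It is a one-sided 95% limit, unlike the two-sided counting intervals given for COL8A1, and covers counting error only. Another 8 (COL2A1, COL4A3, COL6A6, COL9A3, COL17A1, COL21A1, COL23A1 and COL25A1) had no more than 3 reads in any library. Among them are COL2A1 of cartilage and COL17A1 of epithelial hemidesmosomes. COL8A2 had up to 9.53 normalized counts and COL9A2 up to 4.76. A difference between the groups was not detectable in these 20 genes at this depth.

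Genes that modify, fold, process, crosslink or bind collagen were described beside the collagens. Of 51 listed, 40 were tested and 0 were called in either direction by limma, where 0.0884% of all tested genes were, and 1 had an unadjusted p under 0.05. edgeR and DESeq2 also called 0 of them. Their median log2 difference was 0.02, beside -0.0089 over all tested genes. The prolyl and lysyl hydroxylases and glycosyltransferases (15 tested) had a median of 0.06, led in level by P4HB (3182 and 3167 normalized counts in Ctr-KD cells and 3194, 3315 and 2995 in NSD2-KD cells), which is also a protein disulfide isomerase. PLOD1 and COLGALT1 followed, and COLGALT1 was low in NSD2-2 alone (590 against 875 and 971 in Ctr-KD cells).

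The chaperones and secretion genes (11 tested) had a median of 0.03. SERPINH1, the collagen-specific chaperone HSP47, had 3616 and 3713 normalized counts in Ctr-KD cells and 3947, 3711 and 3863 in NSD2-1, NSD2-2 and NSD2-3. SPARC, a collagen-binding matricellular protein, and FKBP10, a prolyl isomerase, were the others of the 3 highest, and their groups overlapped. Of the 10 genes for propeptide removal, 3 were tested (median -0.09). These were PCOLCE, ADAMTS2, which cuts the amino-terminal propeptide, and BMP1, which cuts the carboxy-terminal one, and their groups overlapped.

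The lysyl oxidases, which crosslink collagen and elastin, had a median of 0.06 over 5 tested genes. LOXL1 was the gene with an unadjusted p under 0.05, with 467 and 453 normalized counts in Ctr-KD cells and 508, 587 and 608 in NSD2-1, NSD2-2 and NSD2-3 (log2 difference of 0.30, adjusted p = 0.454 from limma). LOX had 2756 and 2845 against 1651, 2948 and 3057. As for COL8A1 and COL5A2, NSD2-1 was the 1 low library for LOX, while LOXL2 had 3435 and 3492 against 3439.6, 3494 and 3238. LOX was chosen for its level and its likeness to COL8A1 was seen afterwards. Of all tested genes, 38.0% were below both Ctr-KD libraries in NSD2-1, so a low value there is not particular to these genes.

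Of 10 collagen receptors and uptake genes, 6 were tested, with a median of -0.02. ITGB1, the beta chain shared by the collagen-binding integrins, had 5869 and 5872 normalized counts in Ctr-KD cells and 5998, 6409 and 5553 in NSD2-KD cells. MRC2, which takes up collagen fragments, had 1748 and 1728 against 1715, 1724 and 1575, with each NSD2-KD library below both Ctr-KD libraries by a small amount (log2 difference of -0.06, adjusted p = 0.887 from limma). ITGA1 had 851 and 848 against 842, 996 and 881. The groups overlapped for ITGB1 and ITGA1.

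**Figure D4:**
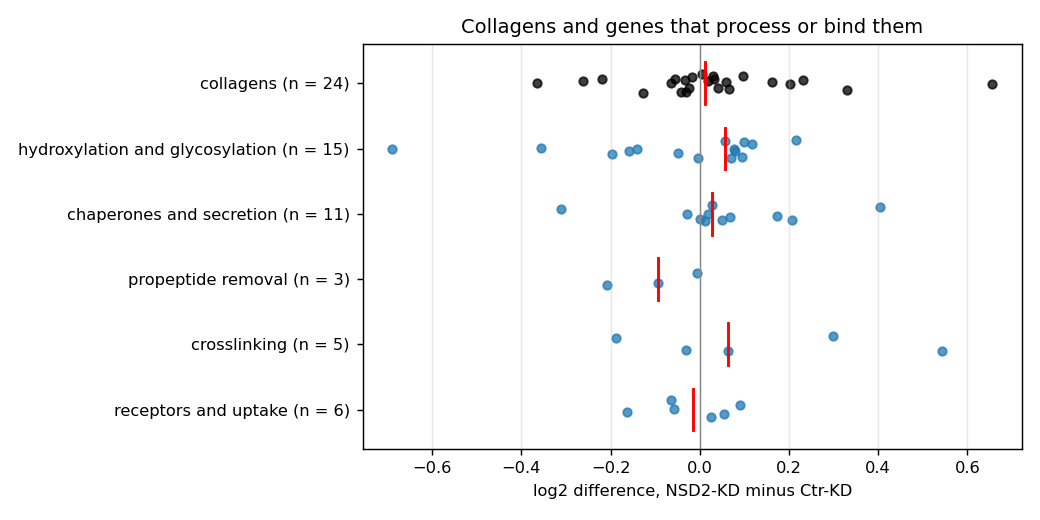
Log2 difference between NSD2-KD and Ctr-KD cells for the 24 tested collagens and for the tested genes of 5 lists of collagen-processing and collagen-binding genes; each point is a gene and the red line is the median of the list. All medians lie between -0.09 and 0.06.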

How the data were processed

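Per the supporting experimental procedures, the authors used Trimmomatic for trimming, HISAT2 for mapping to hg19, SAMtools to keep unique hits and featureCounts for counting. The annotation and strand setting are not given in the sources used here, and the library kit does not mark strand, so reads of 9 tested collagens whose exons overlap another gene cannot be told apart (among them COL1A1, COL4A2, COL5A3 and COL8A1). The deposited signal is the read count of a gene after division by the DESeq2 size factor of its library. A table of the authors' own comparison (fold changes and p-values) was not used. In each library 100% of values were whole multiples of the value of 1 read (tolerance 0.01), which gave the reads.

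limma 3.58.1 with a mean-variance trend was fitted to log2(normalized count + 1) for genes with a mean of at least 10, without covariates, two-sided, with Benjamini-Hochberg adjustment over 11313 genes. With 2 and 3 libraries the smallest exact permutation p is 0.1. edgeR 4.0.16 and DESeq2 1.42.0 were run on the recovered reads, and the fits were tested on simulated data. Other alternatives were the pseudocount, filter, trend, quantile normalization, a block on the replicate number and leaving out each library. The members and lists were chosen with earlier results of these data known. Every collagen over the filter is named with its values. Genes of the other lists are named where the unadjusted p was under 0.05 or the level was among the 3 highest of the list. Positions and transcript lengths are from GENCODE on GRCh37, the assembly of hg19. One marker of the leukocyte list is not reported here.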

Additional observations from a re-analysis of the deposited data

How the results depend on the processing

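The count of collagens called was 0 under all 14 alternatives, and the lowest adjusted p of any collagen was 0.232 (COL8A1, with the replicate block). The median log2 difference of the tested collagens moved in all of them by less than the SD between the siRNAs' medians, with -0.07 to 0.05 on leaving out a library. The direction turned in at least 1 alternative for 14 of the 24 collagens and in none for 10. Quantile normalization sets the log2 differences of COL1A1, the highest gene, and of COL1A2 to 0, which was not counted as a turn. The calls over all genes were 6 lower and 4 higher in the main fit. They were 1 and 0 without the trend, 8 higher with quantile normalization and 11 lower with edgeR. With DESeq2 they were 41 and 15, and with the replicate number as a block 84 and 18. Only NSD2-KD had a replicate 3, so the block fitted NSD2-3 by itself. The log2 differences with the block were therefore those without NSD2-KD replicate 3. On leaving out 1 library the lower calls ran from 0 (without either Ctr-KD library) to 22 and the higher calls from 0 (without either Ctr-KD library or NSD2-KD replicate 2) to 8, both highest without NSD2-KD replicate 3. The cause of these shifts was not tested. Where 1 Ctr-KD library is left, it is assumed to vary like the NSD2-KD libraries. Deviations from the group mean of libraries with the same replicate number correlated at -0.015 and -0.027. The Ctr-KD libraries differed by little more than counting noise, so these values cannot show whether the numbers pair the libraries. With the block the median of the collagens was 0.05. The union of exons as length lowered every level per kb. With COL15A1 and COL18A1 counted with the basement membrane group, its median went from 0.12 to 0.04. Genes with few reads are limited by depth.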

Other observations

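Among symbols that begin like a collagen but carry a suffix, COL18A1-AS1 had at most 1.03 normalized counts, and COL18A1-AS2, COL6A4P1 and COL6A4P2 were at 0 in every library. COL4A3BP, which encodes a ceramide transporter and no collagen, had 104 and 103 normalized counts in Ctr-KD cells and 103, 142 and 110.3 in NSD2-1, NSD2-2 and NSD2-3.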
